A study of Homo sapiens with 52 samples.

Results

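The sine oculis homeobox, eyes absent and dachshund genes described here are SIX2, SIX4, SIX5, EYA1, EYA2, EYA3, EYA4 and DACH1. They were taken by gene name, 8 of the 27043 genes listed in each expression table. The choice was made with earlier results of these data known, so their calls are not those of an unselected set. RNA-seq expression was given as TPM, the number of transcripts of a gene within a fixed total per sample, so levels of different genes can be set side by side.

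The cells were of a fusion-positive rhabdomyosarcoma (FP-RMS) line, a childhood muscle-lineage tumour driven in this line by the PAX3-FOXO1 fusion, and every sample carries that fusion. In the screen, 20 small molecules dissolved in DMSO were each given for 6 h at a high dose and at a dose 10 times lower, with 1 sample per dose, beside 2 samples in 0.2% DMSO and 2 in 0.1% DMSO. The high dose was 10 µM and the low dose 1 µM, except for LAQ824, Cpd50 and GSKJ4 (5 and 0.5 µM). The other experiments used cells titled RH4: N1302 at 1 µM for 6 h with 1 DMSO sample, and entinostat at 1 µM for 1, 6 and 24 h with 1 DMSO sample at each time.

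By the targets in the labels, 7 screen compounds act on the acetylation axis. These are the histone deacetylase (HDAC) inhibitors LAQ824 (pan-HDAC), WT161 (HDAC6), MC1568 (HDAC4/5), Merck60 (HDAC1/2) and OJI-1 (HDAC8), the bromodomain inhibitor bromosporin, and SGC-CBP30, which is aimed at the CREBBP/EP300 bromodomain. The 11 methylation-axis compounds are EZ-005 and UNC1999 (EZH2 and EZH1), GSKLSD1, LSD-519 and LSD-690 (LSD1), Cpd50 and GSKJ4 (Jumonji demethylases), UNC0638 (the methyltransferase KMT1C, also called G9a), PFI-2 (SETD7), SGC0946 (DOT1L) and UNC-1215 (the methyl-lysine reader L3MBTL3). PFI-3 (SMARCA4) and trametinib (MEK1/2) belong to neither axis. N1302 and entinostat are HDAC inhibitors. All samples thus come from 1 tumour type in culture, and nothing in the labels says whether samples of a group were separate cultures, so p-values measure only the spread between these samples. Screen titles name the line RH41 while the cell-line label says RH4, and screen and RH4-titled samples were therefore not tested against each other.

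Sine oculis homeobox proteins such as SIX2 and SIX4 are homeodomain transcription factors that bind MEF3 elements in promoters of muscle genes. EYA proteins do not bind DNA themselves. They are carried to these sites by the homeodomain partner, bring activation and also have phosphatase activity, while DACH1 belongs to the SKI family of co-repressors and can turn the same complex towards repression. In the embryonic somite the PAX-SIX-EYA-DACH network acts upstream of the myogenic factors, and PAX3 itself responds to it.

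All 8 genes code for protein, and the tables place their gene bodies in build hg19. SIX2 lies on chromosome 2 from 45232324 to 45236542, SIX4 on chromosome 14 from 61176256 to 61190852, and SIX5 on chromosome 19 from 46268043 to 46272497. EYA2 lies on chromosome 20 from 45523263 to 45817492, EYA3 on chromosome 1 from 28296855 to 28415148, and EYA4 on chromosome 6 from 133562495 to 133853258. DACH1 lies on chromosome 13 from 72012098 to 72441330. EYA2 and EYA4 are on the plus strand and the others on the minus strand. Whether reads were counted by strand is not given in the sources used here, so reads of EYA4 cannot be told apart from those of the antisense RNA TARID, which is in the tables at 0.93 to 1.57 TPM in screen DMSO, nor those of SIX5 from its antisense RNA DM1-AS. EYA1 and EYA2 are also overlapped by non-coding RNA genes on the opposite strand (EYA2-AS1 for EYA2), and the same limit holds for them.

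Of the 8 genes, 5 were found by symbol in the RefSeq promoter table (GRCh38.p14), and 4 of those are printed because they span the responses described below. SIX2 and EYA4 fell under several acetylation-axis compounds, EYA3 rose under some of the same compounds, and SIX4 passed the test under none. The 250 bases before each start were read from the table, and each matched hg19 once: SIX2 at chr2:45236592-45236841 (minus strand), SIX4 at chr14:61191070-61191319 (minus), EYA3 at chr1:28415122-28415371 (minus) and EYA4 at chr6:133562245-133562494 (plus). Capitals mark the E-box, CANNTG, the core that myogenic bHLH factors bind.
SIX2: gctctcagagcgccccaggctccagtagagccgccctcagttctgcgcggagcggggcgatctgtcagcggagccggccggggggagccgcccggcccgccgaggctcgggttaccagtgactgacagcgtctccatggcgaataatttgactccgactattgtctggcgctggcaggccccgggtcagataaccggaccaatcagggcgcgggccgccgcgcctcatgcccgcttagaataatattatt
SIX4: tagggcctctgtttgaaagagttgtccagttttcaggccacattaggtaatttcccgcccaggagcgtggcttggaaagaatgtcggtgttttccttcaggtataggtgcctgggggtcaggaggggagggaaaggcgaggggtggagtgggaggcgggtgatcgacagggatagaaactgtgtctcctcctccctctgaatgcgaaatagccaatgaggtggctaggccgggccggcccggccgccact
EYA3: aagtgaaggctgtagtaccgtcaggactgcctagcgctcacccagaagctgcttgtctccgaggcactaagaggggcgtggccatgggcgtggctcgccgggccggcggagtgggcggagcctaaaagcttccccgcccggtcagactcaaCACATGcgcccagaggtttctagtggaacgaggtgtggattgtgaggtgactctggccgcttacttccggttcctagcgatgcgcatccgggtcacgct
EYA4: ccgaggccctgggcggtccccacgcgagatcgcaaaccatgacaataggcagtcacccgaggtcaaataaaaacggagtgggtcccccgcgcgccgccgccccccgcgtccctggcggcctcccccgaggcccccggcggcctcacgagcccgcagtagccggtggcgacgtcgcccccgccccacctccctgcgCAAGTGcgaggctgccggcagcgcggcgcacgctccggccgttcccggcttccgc

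The E-box was searched on both strands, which its palindromic core makes equivalent. It was found in 0 places in SIX2 and SIX4 and in 1 place in EYA3 and in EYA4. Of 34796 promoters with a window of the same length, 61.8% held at least 1. The E-box with a GC core (CAGCTG, a subset of CANNTG, in 14.0% of promoters), the MEF3 element (TCAGGTTTC, in 0.29%) and TATAAA (in 10.8%) were found in none of the 4 windows. What sets these windows apart from one another is CpG number: 36 in EYA4, 26 in SIX2, 20 in EYA3 and 11 in SIX4, against a median of 11 over all promoters. GC content was 75.2% in EYA4, 65.6% in SIX2, 62.4% in EYA3 and 58.0% in SIX4. A match, or its absence, describes these letters only.

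Sequencing depth, worked out from the TPM values as whole reads, ranged from 5737939 to 41415071 reads per sample and followed the flow cell. Flow cell C5JW5ACXX carried 28 samples (14 compounds) at a median of 10571890 reads, and none of them was DMSO. FP-RMS markers were present, with MYOD1 at 48.5 TPM or more and DES at 188 TPM or more in every sample. CDH3 did not exceed 2.39 TPM, and in their lowest samples TFAP2B was at 0.468, NOS1 at 0.347 and PAX3 at 1.19 TPM. The highest value of PTPRC (leukocytes) was 0.165 TPM, of PECAM1 (endothelium) 0.83, of EPCAM (epithelium) 0.513 and of GFAP (astrocytes) 1.6. ALB (hepatocytes) reached 2.99 TPM, whereas COL3A1, a fibroblast collagen, lay between 977 and 3991 TPM. The DMSO samples numbered 1 were on flow cell C4JM1ACXX and those numbered 2 on H144EBGXX, and the numbers differed by 4.078 times the variance of counting noise. This difference was the same in both concentrations to within counting noise (1.018 times). The 2 samples of a concentration were therefore counted as 1 in each mean ± SD (n = 2 concentrations), an SD that leaves out the difference between flow cells, whereas all 4 entered the limma tests. The concentrations themselves differed by 3.549 times the variance of counting noise. Each such SD thus holds the gap between 2 solvent conditions and is not a spread of replicates.

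In untreated cells SIX2 was the most abundant of the 8 genes and DACH1 was close to silent. SIX2, known from kidney progenitors and craniofacial mesenchyme, was expressed at 193 and 190 TPM in 0.2% DMSO and at 207 and 217 TPM in 0.1% DMSO, a mean of 202 ± 14.0 TPM (SD, n = 2). EYA4 followed at 58.8 ± 1.04 TPM and EYA1, the EYA gene of branchio-oto-renal syndrome, at 51.8 ± 0.0239 TPM. These 2 levels did not overlap between the 4 DMSO samples, at 57.1 to 61.1 TPM for EYA4 and 51.1 to 52.5 TPM for EYA1. EYA3, the broadly expressed EYA gene, was at 34.3 ± 0.683 TPM and SIX5, the neighbour of the myotonic dystrophy gene DMPK, at 30.8 ± 0.335 TPM, again without overlap. SIX4, which takes part in muscle formation, was at 28.5 ± 0.266 TPM, and its highest sample (29.1 TPM) did not reach the lowest of SIX5 (29.4 TPM). EYA2 was at 15.3 ± 0.511 TPM, and DACH1 at 1.56 ± 0.0821 TPM, from 46 to 78 reads. Every neighbouring pair in this order was therefore separated in the 4 control samples.

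The RH4-titled DMSO samples held the same genes at other levels, in 4 samples that come from 2 experiments. SIX2 was at 65.6 TPM in the N1302 experiment and at 113 to 123 TPM in the time course, all below the 190 TPM of the lowest screen control. SIX5 was at 9.32 TPM and at 19.8 to 23.6 TPM, below the screen as well. DACH1 did not exceed 0.655 TPM. SIX4 was within 25.4 to 29.5 TPM, a range that overlaps the screen. Cell line title, experiment and flow cell change together here and cannot be told apart.

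**Figure D1:**
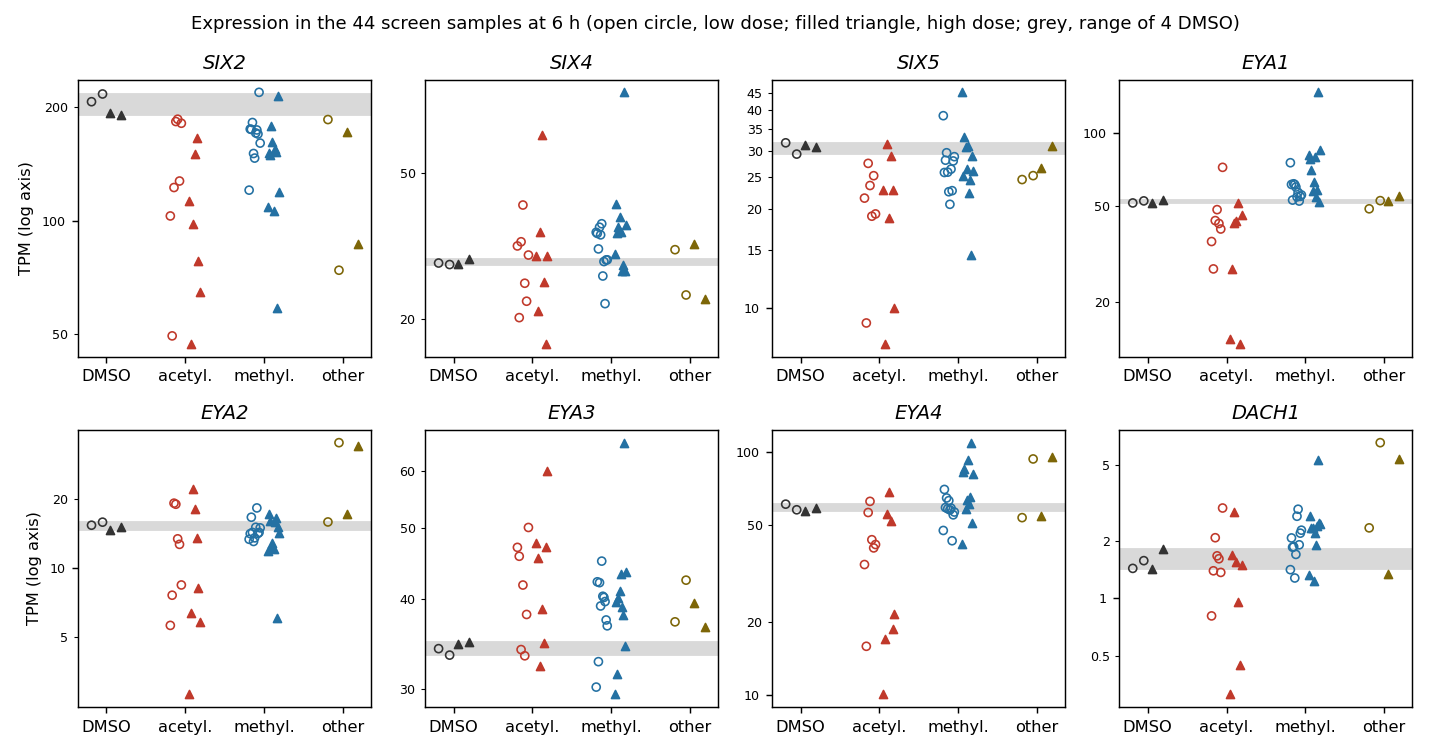
Each point is 1 screen sample at 6 h, with TPM on a log axis, grouped by target class (DMSO, acetylation axis, methylation axis, other); open circles are low doses, filled triangles high doses, and the grey band spans the 4 DMSO samples. SIX2 lies below the band in 38 of 40 treated samples, where 31.9% of values over all tested genes do. The EYA1 band is narrow (51.1 to 52.5 TPM), so small departures leave it. The EYA1 median is 42.2 TPM over acetylation-axis samples and 60.4 TPM over methylation-axis samples.

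Treated samples left the control range in both directions. In such bulk samples, fewer cells that express a gene and less RNA per cell cannot be told apart. Over all tested genes, 31.9% of values in treated samples lay below all 4 DMSO samples and 39.0% lay above them. SIX2 was below in 38 of 40 samples and above in 1, and SIX5 below in 32 and above in 3. EYA3 was the reverse, above in 31 and below in 6. SIX2 was also the gene with the steadiest direction across compounds: both doses were below their matching DMSO samples for 19 of 20 compounds, and both above for UNC-1215, the remaining compound. On flow cell C5JW5ACXX, which has no DMSO sample, all 28 samples had SIX2 below the controls (58.5 to 186 TPM, median 151). SIX5 was below them in 26 of these 28. On flow cell C4JM1ACXX SIX5 was above the controls in 3 of 4 treated samples and below in 1. The part of the flow cell in these counts was not tested.

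For each compound, both doses together were set against the 4 DMSO samples with limma on log2(TPM + 1), over 16359 genes that included all 8 members, and a gene was called at a Benjamini-Hochberg adjusted p below 0.05. The error of each gene was pooled over all compounds and DMSO, so its SE is the same under every compound. It does not measure the spread of a compound's own 2 samples. Because the doses serve as replicates, a response of a gene at 1 dose widens its error under every compound. Missing the threshold therefore does not show the absence of a response. Of 160 tests of a member under a compound, 30 passed, 23 lower and 7 higher. Acetylation-axis compounds accounted for 22 of the 30, out of 56 tests, with 19 lower and 3 higher, where 27.6% of all tests over all genes passed under these 7 compounds. Under methylation-axis compounds 5 of 88 tests passed, every one under UNC0638, where the share over all genes was 4.91%. Under PFI-3 and trametinib 3 of 16 passed, all under trametinib, where the share was 3.08%. With DMSO averaged to 1 value per concentration, 8 of the 22 acetylation-axis calls and 3 of the 5 under UNC0638 were lost. By gene, SIX2 passed under 7 compounds, EYA2 under 5, SIX5, EYA3 and EYA4 under 4 each, EYA1 and DACH1 under 3 each, and SIX4 under 0.

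LAQ824 lowered 5 members and raised 1, where 28.1% of all genes were called lower and 32.4% higher. Bromosporin lowered 6 and raised 1 (29.5% of all genes lower, 16.5% higher), and WT161 lowered 4 and raised 1 (18.8% and 23.0%). SGC-CBP30 lowered 3 (6.11% of all genes lower) and MC1568 lowered 1 (4.92%). UNC0638 lowered 3 and raised 2 (18.9% and 6.33%), and trametinib lowered 1 and raised 2 (3.08% and 3.06%). No member passed under the other 13 compounds. The median log2 fold change of the 8 members was -0.96 under LAQ824, -0.81 under bromosporin, -0.53 under SGC-CBP30 and -0.41 under WT161, beside medians over all genes of 0.06, -0.12, 0.03 and 0.03.

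**Figure D2:**
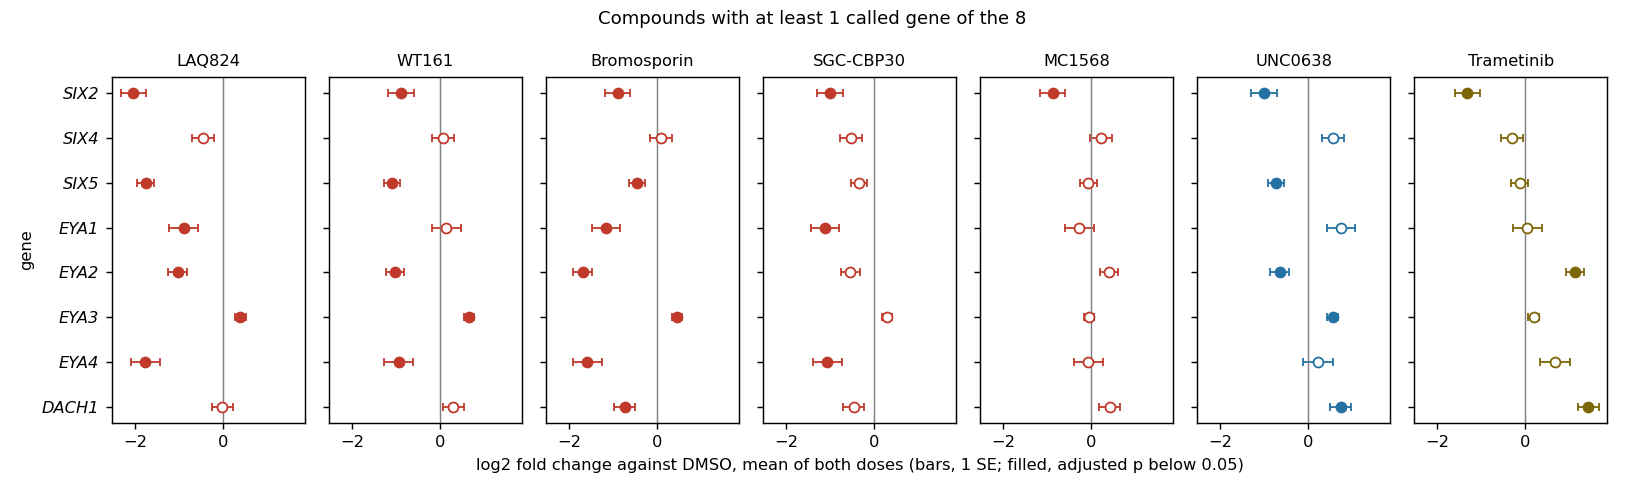
Log2 fold change of each gene against DMSO (x axis, mean of both doses, bars 1 SE from limma) in the 7 compounds under which at least 1 of the 8 genes passed an adjusted p of 0.05 (filled points). SIX4 is open in every panel, and EYA3 lies to the right of 0 in each panel where it is filled.

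SIX2 fell most under LAQ824, to 47.1 TPM at 5 µM and 49.5 TPM at 0.5 µM against 190 to 217 TPM in DMSO. The log2 fold change was -2.04 ± 0.29 (SE, limma adjusted p = 1.21e-06). Both doses lay far below every control and close to each other. MC1568 left 97.6 and 122 TPM (log2 fold change -0.88, limma adjusted p = 0.0219). WT161 was a case of dose, with 64.7 TPM at 10 µM and 181 TPM at 1 µM (-0.89, limma adjusted p = 0.0158). SGC-CBP30 gave 78.1 and 127 TPM (-1.01, limma adjusted p = 0.027), and bromosporin 113 and 103 TPM (-0.90, limma adjusted p = 0.0135). In all of these SIX2 stayed below the lowest DMSO sample at both doses. WT161, SGC-CBP30 and bromosporin were sequenced on flow cell C5JW5ACXX, and against the other compounds of that flow cell in place of DMSO their SIX2 changes were -0.32, -0.45 and -0.33 and did not pass (limma adjusted p = 0.311, 0.286 and 0.282).

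SIX5 was most affected by LAQ824 and WT161. Under LAQ824 it was at 7.8 and 9.03 TPM (272 and 371 reads) at the high and low dose, against 29.4 to 31.8 TPM in DMSO. The log2 fold change of -1.76 ± 0.18 (SE) had a limma adjusted p of 1.03e-08, the smallest of any member in the screen. Under WT161 SIX5 was at 10.0 and 19.4 TPM, below the controls at both doses (-1.09, limma adjusted p = 3.97e-05), and the change also passed against the other compounds of the flow cell (-0.75). Under bromosporin it was at 22.9 and 21.6 TPM, a smaller fall of 0.45 on the log2 scale with a limma adjusted p of 0.0454, which was -0.06 and did not pass with the flow cell as reference. DMPK, which lies next to SIX5, was called lower under LAQ824 (-0.98), WT161 (-1.02), bromosporin (-0.54) and SGC-CBP30 (-0.62).

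SIX4 stayed close to its control level of 28.2 to 29.1 TPM under most compounds, with a median of 30.5 TPM over the 40 treated samples. Its widest departures were at single doses. It was at 63.4 TPM under 10 µM Merck60 and 40.9 TPM at 1 µM, both above every DMSO sample, and at 82.5 TPM under 10 µM UNC0638 but 22.1 TPM at 1 µM. LAQ824 left 21.1 and 20.2 TPM and SGC-CBP30 17.2 and 22.4 TPM, below every control. None of these passed against DMSO (log2 fold changes of -0.44 under LAQ824 and -0.52 under SGC-CBP30). With the flow cell as reference, SIX4 under SGC-CBP30 was -0.69 and passed (limma adjusted p = 0.0378).

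EYA4 and EYA2 fell together under LAQ824, WT161 and bromosporin. EYA4, an EYA gene known for hearing loss and cardiomyopathy, was at 10.1 TPM under 10 µM bromosporin and 34.5 TPM at 1 µM against 57.1 to 61.1 TPM in DMSO (log2 fold change -1.59 ± 0.33, limma adjusted p = 0.000378). Under LAQ824 it was at 17.1 and 15.9 TPM (-1.77, limma adjusted p = 4.86e-05). Unlike bromosporin, LAQ824 gave nearly the same level at both doses. WT161 left 21.6 and 41.7 TPM (-0.94, limma adjusted p = 0.0238) and SGC-CBP30 18.7 and 40.4 TPM (-1.06, limma adjusted p = 0.0404). All 8 of these samples were below every control.

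EYA2, the EYA protein often raised in tumours, was lowest in the screen under bromosporin, at 2.81 TPM (60 reads) and 5.62 TPM (61 reads) against 14.6 to 15.9 TPM in DMSO. The log2 fold change was -1.70 ± 0.21 (SE, limma adjusted p = 1.84e-06). LAQ824 left 6.36 and 7.62 TPM (-1.03, limma adjusted p = 0.00012) and WT161 5.82 and 8.45 TPM (-1.02, limma adjusted p = 0.000307). EYA2 and EYA4 also passed under WT161 and bromosporin when the other compounds of the flow cell were the reference. MC1568 and Merck60, which are also HDAC inhibitors, left EYA2 higher, at 22.3 and 19.2 TPM and at 18.1 and 19.0 TPM, all above the control range, but neither change passed.

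EYA1 lies on chromosome 8 from 72109668 to 72274467 (minus strand). It fell under both bromodomain inhibitors, with lower levels at the high dose. Its level was 14.2 TPM under 10 µM bromosporin and 35.6 TPM at 1 µM (log2 fold change -1.16, limma adjusted p = 0.00492), and 13.5 and 40.1 TPM under SGC-CBP30 (-1.12, limma adjusted p = 0.0289), against 51.1 to 52.5 TPM in DMSO. LAQ824 left 27.5 TPM at both doses (-0.89, limma adjusted p = 0.0205). The WT161 samples fell on either side of the controls, at 45.8 and 71.9 TPM. The changes under bromosporin and SGC-CBP30 also passed with the flow cell as reference.

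EYA3 went the other way, and by less. Under WT161 it was at 59.9 and 50.1 TPM against 33.4 to 34.9 TPM in DMSO (log2 fold change 0.66 ± 0.12, limma adjusted p = 0.000101). Bromosporin gave 47.7 and 47.0 TPM (0.46, limma adjusted p = 0.00331) and LAQ824 45.4 and 45.7 TPM (0.40, limma adjusted p = 0.00585). These 6 samples lay above every control and showed little effect of dose. Most compounds of flow cell C5JW5ACXX had EYA3 above the controls, in 26 of 28 samples, and with these compounds as reference bromosporin was at 0.19 and did not pass, while WT161 still did.

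DACH1 is measured at low values, and its fold changes on the log2(TPM + 1) scale understate the ratio of TPM. It was at 0.314 TPM (13 reads) and 0.809 TPM (17 reads) under bromosporin against 1.43 to 1.82 TPM in DMSO, below every control (log2 fold change -0.73, limma adjusted p = 0.0142). Under SGC-CBP30 10 µM it was at 0.446 TPM (11 reads), and under LAQ824 at 1.7 and 1.39 TPM. DACH1 thus did not share the fall of SIX2, SIX5 and EYA4 under LAQ824, where its change was -0.01.

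Trametinib, the MEK inhibitor, separated the members. EYA2 rose to 34.4 and 35.4 TPM (10 and 1 µM) against 14.6 to 15.9 TPM in DMSO (log2 fold change 1.14 ± 0.21, limma adjusted p = 0.000798), its highest values in the screen. DACH1 rose to 5.35 TPM (137 reads) and 6.53 TPM (112 reads) from 1.43 to 1.82 TPM (1.43 ± 0.24, limma adjusted p = 0.00027). SIX2 fell to 86.7 and 73.8 TPM (-1.32 ± 0.29, limma adjusted p = 0.00499). All 3 passed with the flow cell as reference too. EYA4 was at 95.4 and 93.7 TPM, above every control at both doses, with a change that did not pass.

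Under UNC0638 the doses gave very different levels. At 10 µM SIX4 was at 82.5 TPM, EYA1 at 146 TPM, EYA4 at 109 TPM and EYA3 at 65.6 TPM, the highest value of each of these genes in the screen. SIX2 (58.5 TPM), SIX5 (14.5 TPM) and EYA2 (6.08 TPM, 40 reads) were at the same time far below the controls. At 1 µM the corresponding levels were 22.1, 52.2, 43.2 and 39.6 TPM, and 170, 22.8 and 14.2 TPM. Averaged over doses, EYA3 (0.56) and DACH1 (0.75) were called higher and SIX2 (-1.01), SIX5 (-0.73) and EYA2 (-0.65) lower, with limma adjusted p between 0.00211 and 0.0239. The 10 µM sample had 6849916 reads. With the flow cell as reference SIX2 and SIX5 no longer passed, and EYA1 did (0.81, limma adjusted p = 0.0278). In a fit that held UNC0638 and DMSO alone, none of the 5 called changes passed (limma adjusted p from 0.0989 to 0.243).

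**Figure D3:**
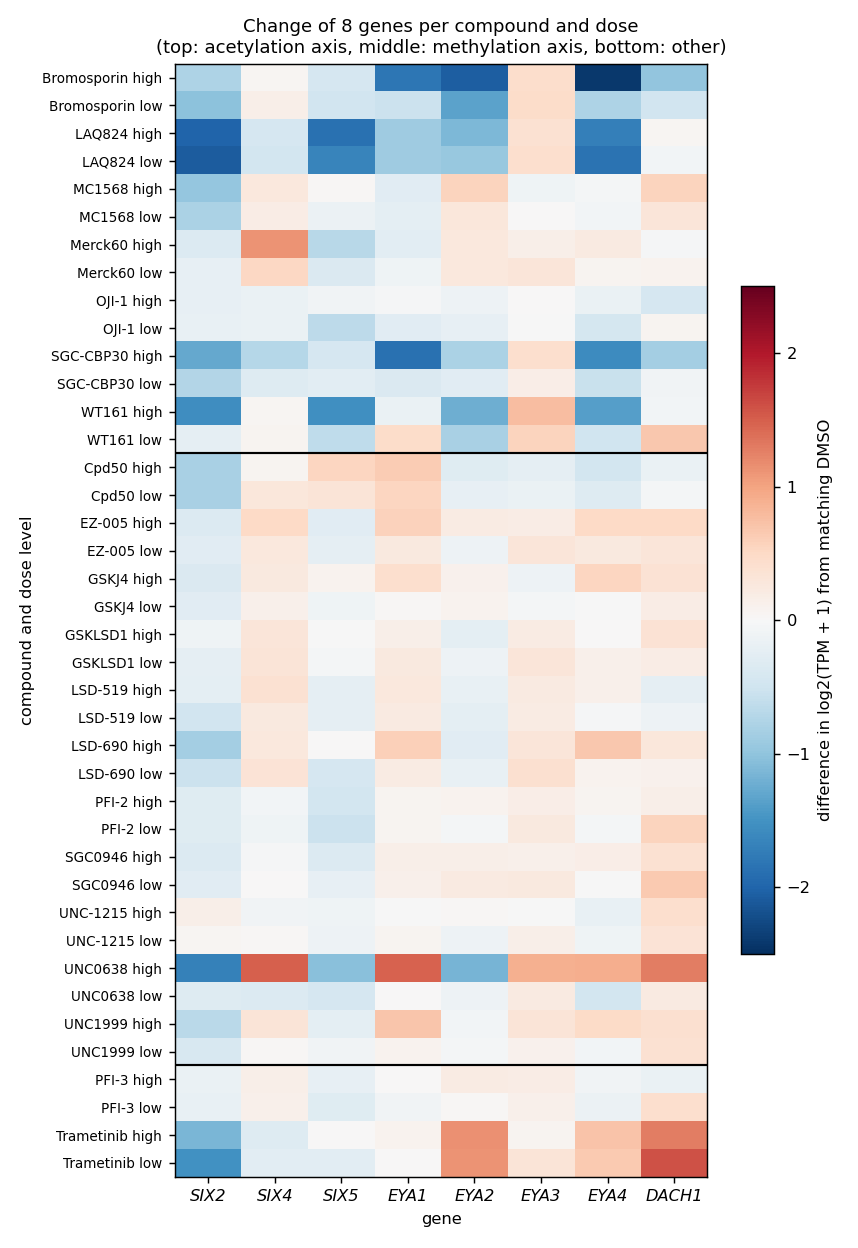
Difference in log2(TPM + 1) of each gene (columns) from the mean of the 2 matching DMSO samples, for each compound at its high and low dose (rows, acetylation axis on top, then methylation axis, then PFI-3 and trametinib); blue is lower and red higher. The EYA4 cell of 10 µM bromosporin is the lowest at -2.41, the SIX2 column is blue in all rows except those of UNC-1215, and 10 µM UNC0638 is red for SIX4 (1.49) and EYA1 (1.48).

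**Figure D4:**
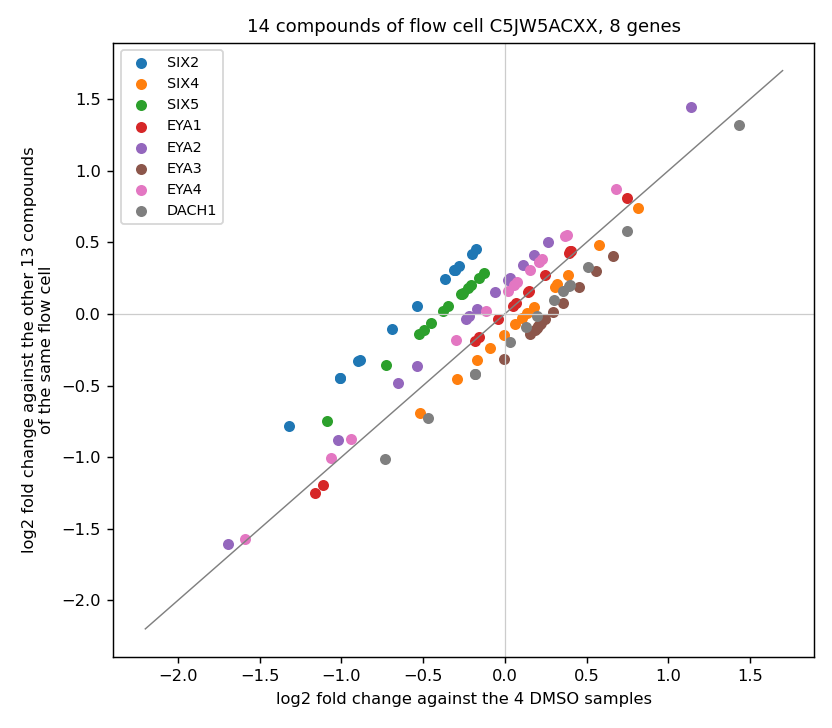
Log2 fold change of the 8 genes in the 14 compounds of flow cell C5JW5ACXX, against the 4 DMSO samples (x axis) and against the other compounds of the flow cell (y axis); each point is 1 gene under 1 compound and the line marks equal values. SIX2 points lie above the line throughout, as for bromosporin (-0.90 and -0.33), while EYA4 under bromosporin is at -1.59 and -1.57.

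Of the 112 tests of a member under a compound of this flow cell, 16 passed with both references, 7 with DMSO alone and 3 with the flow cell alone. The same split over all genes is not given here, so these counts do not set the members apart from other genes. Over all 16359 genes, 8193 passed with the flow cell as reference under bromosporin, 7318 under WT161 and 5080 under UNC0638. Under SGC-CBP30 1528 did and under trametinib 1341. A pass with this reference, which averages the other compounds with strongly active ones among them, was thus common under bromosporin and WT161. The 7 that rest on the DMSO reference are SIX2 under bromosporin, SGC-CBP30, WT161 and UNC0638, SIX5 under bromosporin and UNC0638, and EYA3 under bromosporin.

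The 2 axes were then compared with compounds as units (7 against 11, limma on compound means). EYA1 and EYA4 differed most. The change of EYA1 averaged -0.52 ± 0.53 over the 7 acetylation-axis compounds and 0.31 ± 0.22 over the 11 methylation-axis compounds (± SD), a difference of -0.83, and that of EYA4 was -0.80 ± 0.75 and 0.10 ± 0.23, a difference of -0.90. In TPM, EYA1 ranged from 13.5 to 71.9 (median 42.2) over 14 acetylation-axis samples and from 51.8 to 146 (median 60.4) over 22 methylation-axis samples. Neither gene passed, each with a limma adjusted p of 0.0568, and 0 of 16359 genes did (0.0%), although 5018 genes and 5 of the 8 members had an unadjusted p below 0.05. The other differences were -0.47 for SIX5, -0.46 for SIX2, -0.42 for EYA2, -0.38 for DACH1, -0.20 for SIX4 and 0.10 for EYA3. Within flow cell C5JW5ACXX, with 5 and 7 compounds, the difference was -0.84 for EYA1 and -0.94 for EYA4, whereas it shrank to -0.15 for SIX2 and -0.22 for SIX5. These differences within the flow cell were not tested. At the high dose alone the difference grew to -1.22 for EYA1 and -1.27 for EYA4, and both passed (limma adjusted p = 0.0364), where 9.87% of all genes did.

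The step from low to high dose was tested over 20 pairs with compound as a block. SIX2 was lower at the high dose in 17 of 20 compounds, by -0.30 on average (SD over compounds 0.46), and EYA2 in 14 of 20, by -0.17. With each dose set against its own DMSO concentration, this became 12 of 20 and -0.16 for SIX2, and 11 of 20 and -0.10 for EYA2. With limma neither passed (adjusted p = 0.153 and 0.258), and 0 genes did (0.0%, 2874 at an unadjusted p below 0.05). The difference between 0.2% and 0.1% DMSO, the solvent of the high and low doses, was itself -0.14 for SIX2 (limma adjusted p = 0.511, with 0 genes or 0.0% called and 1548 at an unadjusted p below 0.05). The dose step went opposite ways on the 2 axes for EYA1, at -0.48 ± 0.68 over 7 acetylation-axis compounds and 0.29 ± 0.45 over 11 methylation-axis compounds (SD), and for EYA4, at -0.46 ± 0.75 and 0.28 ± 0.44. The interaction did not pass for EYA1 (-0.77, limma adjusted p = 0.21) or EYA4 (-0.74, limma adjusted p = 0.225), nor for any gene (0.0%, with 2581 at an unadjusted p below 0.05).

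N1302 and entinostat were each measured in 1 sample per condition, so their differences have no replicate check and no p is given. A change counts from 2-fold on the log2(TPM + 1) scale. Rescaling each sample to the median ratio of 6316 well-expressed genes shifts the changes upward, by a median of 0.30 under N1302 and 0.12 under entinostat at 6 h. Under N1302, 4 members were lower past 2-fold and 0 higher, where 19.3% of genes were lower and 11.6% higher.

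EYA4 went from 66.8 TPM in DMSO (3825 reads) to 12.8 TPM (514 reads) under N1302, a log2 difference of -2.29. SIX4 went from 26.5 to 7.37 TPM (-1.72), and this was the lowest SIX4 value of the 52 samples. EYA1 was at 33.2 and 11.5 TPM (-1.45) and SIX2 at 65.6 and 26.7 TPM (-1.27). SIX2 no longer reached 2-fold after rescaling (-0.95). SIX5 (9.32 and 5.46 TPM), EYA2 (11.5 and 7.53 TPM) and EYA3 (25.6 and 23.9 TPM) changed by less. Against the mean of the 6 h DMSO samples of both RH4-titled experiments, SIX5 (-1.26) and EYA2 (-1.02) passed 2-fold too. That made 6 members lower. The time-course DMSO sample at 6 h held more of both genes, with 22.3 TPM of SIX5 and 22.8 TPM of EYA2. After rescaling, with the DMSO sample of the N1302 experiment alone, 3 members were lower. Shares over all genes are not given for these 2 settings, so their counts do not set the members apart from other genes. DACH1 rested on 3 and 4 reads, so no fold is given.

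Under entinostat, an inhibitor of HDAC1/2/3, 0 members were past 2-fold at 1 h, when 0.581% of genes were lower and 0.66% higher past it. At 6 h, SIX2 was at 55.1 TPM against 113 TPM in DMSO (log2 difference -1.03) and SIX4 at 57.9 TPM against 25.8 TPM (1.14), 1 member in each direction, where 0.947% of genes were lower and 5.13% higher. EYA2 was at 45.1 against 22.8 TPM (0.96), just inside the threshold. These 2 genes were closer to DMSO at 24 h, at 33.8 against 29.5 TPM for SIX4 and 32.5 against 25.6 TPM for EYA2.

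By 24 h SIX5 was at 9.23 TPM against 23.6 TPM (-1.27), 1 member lower and 0 higher, where 6.06% of genes were lower and 16.4% higher. SIX2 stayed down at 61.6 against 115 TPM (-0.89) and EYA1 at 34.3 against 55.5 TPM (-0.68). DACH1 was at 0.635 TPM (43 reads) in DMSO and 1.29 TPM (93 reads) at 6 h and 2.13 TPM (133 reads) at 24 h under entinostat (0.94 at 24 h), the largest rise of a member at that time. EYA4 and EYA3 stayed near DMSO at every time, with EYA4 at 65.4 against 52.9 TPM (0.30) at 24 h as the widest gap of either gene.

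**Figure D5:**
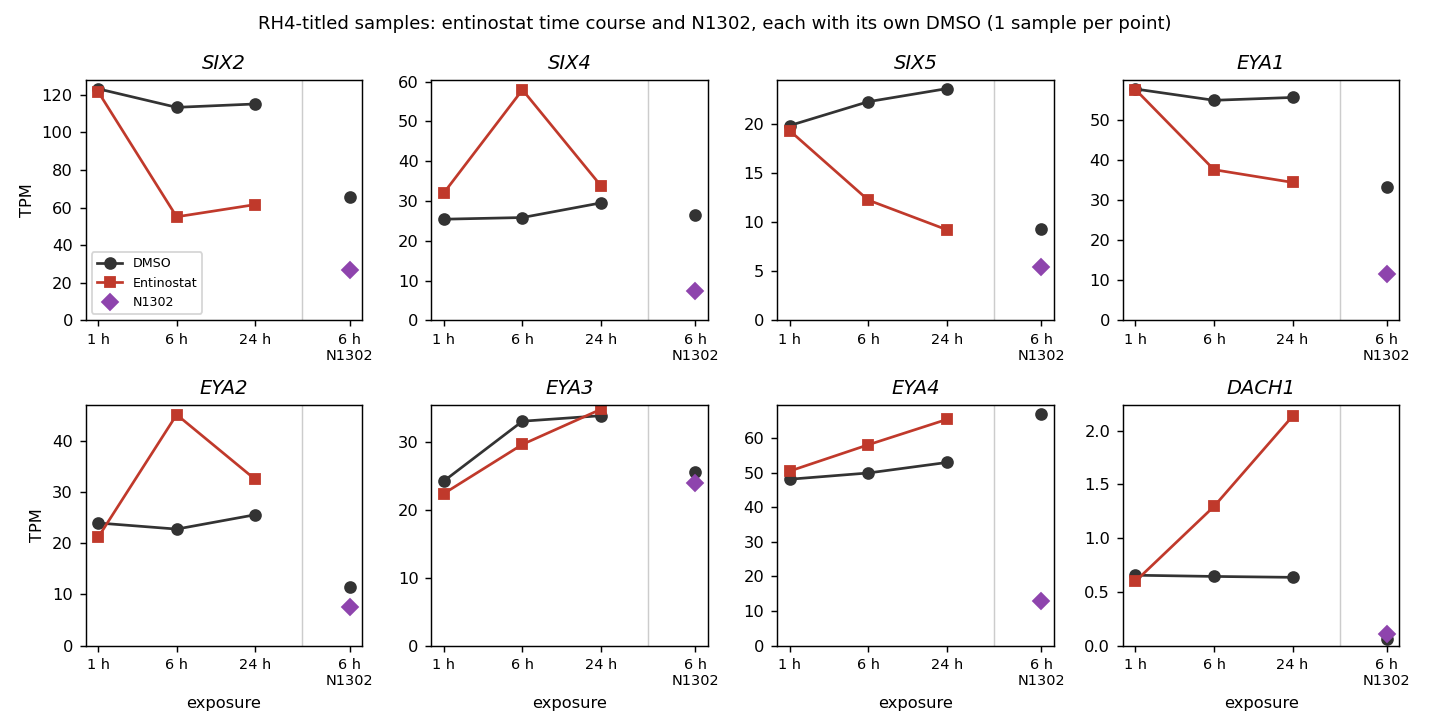
TPM of each gene in the RH4-titled samples, 1 sample per point: entinostat (squares) and DMSO (circles) at 1, 6 and 24 h, spaced evenly, and at the right N1302 (diamond) with its own DMSO at 6 h. SIX4 and EYA2 peak at 6 h of entinostat (57.9 and 45.1 TPM), SIX5 declines to 9.23 TPM at 24 h, and EYA4 is at 12.8 TPM under N1302.

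At 6 h the HDAC inhibitors did not treat SIX4 alike, in samples without replicates at a given dose. It was at 63.4 TPM under 10 µM Merck60 and 57.9 TPM under 1 µM entinostat, above every DMSO sample of its own experiment, but at 20.2 TPM under 0.5 µM LAQ824 and 7.37 TPM under 1 µM N1302, below them. These doses and experiments differ, and the values stand side by side without a test.

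Genes of the same pathway were counted with the same fits. Of a list of PAX and myogenic factors, 5 of 8 genes were tested (PAX3, PAX7, MYOD1, MYOG and MEOX1). On the acetylation axis they gave 13 calls lower (37.1% of 35 tests) and 0 higher, where 12.7% of all tests over all genes were called lower and 14.9% higher. Those lower included MYOG, which executes differentiation (-3.50 under LAQ824), MYOD1 (-3.12) and PAX3 (-1.59). On the methylation axis 1 of 55 tests was called lower and 1 higher, both under UNC0638 (MYOD1 -1.18, MEOX1 1.34), where all genes gave 2.72% lower and 2.2% higher. Of 12 cofactors and co-repressors, all tested, the acetylation axis gave 21 calls lower (25.0% of 84 tests) and 4 higher (4.76%), against the same 12.7% and 14.9%. Those lower included the acetyltransferase genes EP300 (-1.98 under LAQ824) and CREBBP (-1.94) and the Groucho-type co-repressors TLE3 (-1.41) and TLE1 (-1.33), while SKI, a relative of DACH1, was higher under LAQ824 (0.98), bromosporin (0.84) and WT161 (0.66). The other call higher was TLE2, also of the Groucho type, under MC1568 (1.10). The methylation axis gave 1 call lower, TLE2 under UNC0638 (-0.43).

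Genes known as targets of the network divided. The 11 tested share MYOG with the list of PAX and myogenic factors. On the acetylation axis they gave 13 calls lower (16.9% of 77 tests) and 16 higher (20.8%), again beside 12.7% and 14.9% over all genes. CCND1 (cyclin D1) fell by 2.98 on the log2 scale under LAQ824 and by 3.54 under trametinib, and MYC by 1.91 and 1.00. CCNA1 (cyclin A1) rose by 2.41 under LAQ824 and EZR (ezrin) by 1.25, and SLC12A2 was higher under LAQ824 (0.91), bromosporin (0.72) and WT161 (0.65). On the methylation axis 8 calls of 121 tests were higher (6.61%) and 0 lower, beside 2.2% and 2.72% over all genes. Of these 8, 6 were CCNA1 and EZR under the LSD1 inhibitors GSKLSD1, LSD-519 and LSD-690. The family relatives SIX3, SIX6 and DACH2 were too low to be tested. Under N1302, all 5 PAX and myogenic genes and 5 of the 12 cofactors were lower past 2-fold and 0 higher. Of the 11 targets, 4 were lower and 2 higher. Over all genes, 19.3% were lower and 11.6% higher. Entinostat at 24 h left 2 of the 5 PAX and myogenic genes lower, MYOG at 107 against 546 TPM and MYOD1 at 113 against 367 TPM. At the same time the cofactors TLE2 (1.09) and SKIL (1.32) and the targets CCNA1 (3.54) and CKM (1.58) were higher past 2-fold and DMPK was lower (-1.17). Over all genes at that time, 6.06% were lower and 16.4% higher. The 2 of 12 cofactors and 2 of 11 targets that were higher are near that share.

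Across the 20 compound means, which share flow cells and the DMSO reference, the patterns of the 7 members at a mean of at least 5 TPM were compared with 11105 other genes above that mean, as a description. DACH1 was too low. EYA4 ran closest to CDK14, MRAS and COX10 (Pearson r of 0.97 for each) and EYA3 to EAF1 (0.95), HIPK1 and RMND5A (0.92 and 0.91). SIX5 was most like ZC3HAV1L (0.94), WTIP (0.93) and TSKU (0.92), and EYA2 like HOXD13, LPAR1 (0.92 each) and SYNC (0.91). EYA1 followed MSI2 (0.91), TRIM55 and MEF2C (0.90 each), and SIX2 followed BHLHB9, DKC1 and SKA3 (0.89 each). SIX4 had the weakest likeness, with PHLDA1 at 0.83 and RAPH1 and CCDC140 at 0.78. Among the members themselves EYA2 and EYA4 were most alike (0.81), then EYA1 and EYA4 (0.77), while EYA3 ran against SIX5 (-0.69).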

How the data were processed

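RNA-seq was deposited as 1 table per sample for 52 samples. The authors selected poly-A RNA, aligned paired-end reads to hg19 with STAR and computed TPM with RSEM. The deposited values are TPM, which correct for gene length and depth, and replicates were not pooled. RSEM is named in the paper, whereas the tools listed from the submitters' processing notes are STAR and edgeR, without saying what edgeR was for. Which of these gave the deposited values was not tested. Every per-sample column was used.

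Samples were grouped from the labels. The 8 genes, the lists and the tests were chosen with earlier results of these data known, so no list is independent support. Named genes are the 8 members in every comparison, the members of fixed gene lists that passed or that a sentence turns on, and the 3 genes most like each member. Some listed genes are not reported here, and the lists were counted without them. Expression was analysed as log2(TPM + 1), and the 16359 genes that reached 1 TPM in 2 or more samples were tested. Tests used limma 3.58.1 (lmFit, and eBayes with a trend) in R 4.3.3 with Benjamini-Hochberg adjustment over all tested genes. All 44 screen samples entered 1 fit per compound comparison. The fits were tested on simulated data. Comparisons with 1 sample per condition have no test.

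TPM values of 23645 genes (100% of those above 0) were whole multiples of a step, within 0.01, and gave whole reads, which describe depth and served for a voom alternative. The reads limit precision through counting error only. DMSO samples numbered alike were on the same flow cell and deviated together. Alternatives changed the pseudocount (0.1), scaling, filter, reference, dose, fold and samples. Other steps used numpy 2.4.6, pandas 2.3.3 and matplotlib 3.10.9 under Python 3.11.15. Promoters came from RefSeq, with positions from hg19.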

Additional observations from a re-analysis of the deposited data

How the results depend on the processing

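Of the 30 calls of a member under a compound, 17 passed under every alternative that changed the pseudocount, scaling, filter, samples in the fit, weights or DMSO samples, and 13 were lost under at least 1 of them. The flow cell as reference was not among these alternatives. SIX2 and EYA3 under bromosporin are among the 17 but did not pass with that reference. EYA4 under SGC-CBP30 and SIX5 under bromosporin passed in 4 of 11 and EYA1 under SGC-CBP30 in 6 of 11. No change of sign was found among called values. When each fit held DMSO and a single compound, 31 tests passed on the methylation axis (against 5), none of them among those 5, and 6 under PFI-3 or trametinib (against 3). With voom on whole reads 8 passed on the methylation axis. With DMSO averaged to 1 value per concentration, 14 passed on the acetylation axis (against 22) and 2 on the methylation axis. With a log2 fold change of at least 1 required as well, 12 and 1 passed. The shares over all genes under these settings are not given here, so these counts do not set the members apart from other genes. For the difference between axes, where 0 members passed, 2 passed at the high dose alone and 2 among genes averaging 5 TPM or more (EYA1 and EYA4 in both), of 1614 and 833 genes called. Leaving out 1 compound gave 0 to 3 members, with 3 without MC1568 (2503 genes called, against 0), 3 without OJI-1 (3056) and 2 without Merck60 (2673). For entinostat at 6 h, members lower past 2-fold (1) became 0 with median-ratio scaling and 0 with both 6 h DMSO samples as reference, and 2 at 1.5-fold, while members higher (1) became 2 under each of these 3 settings. At 24 h, members lower (1) became 3 at 1.5-fold, and members higher (0) became 1 with a pseudocount of 0.1, 1 with scaling and 1 at 1.5-fold. Shares over all genes are not given for these entinostat settings either. With the replicate number as a block, 0 genes differed between DMSO concentrations, as without it, with 1768 against 1548 genes at an unadjusted p below 0.05. The causes of these changes were not tested. Reads limit DACH1 most, with 3 to 195 per sample. A single sample per dose, and a flow cell without DMSO for 14 compounds, limit what the screen can separate.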

Other observations

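The antisense RNA TARID, whose gene overlaps EYA4 on the opposite strand, was the other measured transcript of that locus. It was at 1.43, 1.27, 0.93 and 1.57 TPM in the 4 screen DMSO samples and at 7.43 TPM (54 reads) under 10 µM UNC0638, its highest value in the screen, where EYA4 was also at its highest. Under 10 µM bromosporin it was at 0.551 TPM (13 reads), and under N1302 at 0.238 TPM (5 reads) against 1.8 TPM (54 reads) in DMSO, in samples where EYA4 was low. TARID was chosen after its values were seen, and because reads of both strands may be counted together, these values are not independent of those of EYA4.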
